A study of Mus musculus with 24 samples.

Results

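The replication-dependent histone genes encode the linker histone H1 and the core histones H2A, H2B, H3 and H4 that package new DNA during S phase. They were taken as the rows whose trimmed symbol starts with Hist1h, Hist2h, Hist3h or Hist4h and whose type is protein coding, which gave 68 genes of the 37979 rows in the table. The 68 genes comprised 6 of H1, 19 of H2A, 18 of H2B, 12 of H3 and 13 of H4. By symbol, 55 belonged to the Hist1 cluster, 10 to Hist2, 2 to Hist3 and 1 to Hist4.

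Their levels were read in 24 RNA sequencing libraries of macrophages sorted from lungs of male C57BL/6 mice aged 10 to 16 weeks, 3 libraries in each of 8 groups. MacA cells were gated as SiglecF+/CD11c+. The MacB gates all took CD11b+/Ly6G- cells and were split by CD64 and CD11c: CD64low/CD11c+ for MacB1, CD64med/CD11c- for MacB2 and CD64hi/CD11c+ for MacB3. Uninjected mice, whose lobes were all used, gave the naive groups, named MacA-N, MacB1-N and MacB2-N. The other mice received LLC-Luc cells in the left lobe, a Lewis lung carcinoma line that carries luciferase, and left lobes with tumour were taken. The groups of 2 weeks after injection are MacA-2wk, MacB2-2wk, MacB3-2wk, and those of 3 weeks are MacB2-3wk together with MacB3-3wk. Each library held sorted cells from the pooled tissue of 3 to 5 mice, and the labels give 3 independent experiments. Lobes cannot be told apart from tumour, and run lane cannot be told apart from MacA against MacB, since all MacA libraries were on lane 1 and all MacB libraries on lanes 2, 3 and 7.

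Replication-dependent histone genes are transcribed at high rates when cells replicate DNA. Most of their mRNAs carry no poly(A) tail and end instead a few bases after a conserved stem-loop, which the stem-loop binding protein Slbp binds during processing, export and translation. Some of these genes also make polyadenylated transcripts in cells that have stopped dividing. Libraries made from total RNA, as here, can register both kinds, whereas libraries that select poly(A) RNA lose most of the first. Alveolar macrophages, which carry SiglecF and CD11c, are known to renew themselves in the lung by division, while monocyte-derived cells are replenished from blood.

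The stem-loop was searched in the annotated transcripts of GENCODE M21 (GRCm38), and was found in 46 of the 68 genes and in 53 of 21877 protein-coding genes in all (0.242%). Of the 22 genes without a match, 18 had an annotated transcript whose length is a multiple of 3, as that of a coding sequence is. Whether these transcripts stop before the stem-loop was not checked. The core of 16 bases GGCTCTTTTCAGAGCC was shared by 26 members of 4 classes, and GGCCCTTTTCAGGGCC was found in 7 genes, all of them H4. For 3 of the genes on which the results turn, the sequence is shown with 5 bases on either side and the stem-loop in capitals.
Hist1h1e: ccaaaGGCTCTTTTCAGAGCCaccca
Hist1h4d: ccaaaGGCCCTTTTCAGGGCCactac
Hist1h3g: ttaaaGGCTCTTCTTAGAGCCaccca
The annotated transcript ran on for 47 bases after the stem-loop in Hist1h3g, for 770 bases in Hist1h4d and for 1153 bases in Hist1h1e. Of the 46 genes with a match, 23 had an annotated transcript that continued for over 100 bases beyond it.

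Upstream sequence was available from RefSeq (GRCm38.p6) for 62 of the 68 genes, as the 250 bases before the start. The 5 motifs counted after the sequences were searched on both strands, and capitals mark each match in either orientation, also where matches overlap. The windows of 4 genes, an H3, an H2A, an H1 and an H4, are shown because the results turn on them.
Hist1h3g, chr13:23535168-23535417, + strand: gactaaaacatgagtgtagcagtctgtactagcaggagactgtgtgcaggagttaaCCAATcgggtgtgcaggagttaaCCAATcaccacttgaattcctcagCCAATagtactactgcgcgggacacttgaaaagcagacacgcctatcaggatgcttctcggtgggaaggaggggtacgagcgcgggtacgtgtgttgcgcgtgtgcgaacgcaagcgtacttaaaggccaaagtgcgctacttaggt
Hist1h2ah, chr13:22035644-22035893, - strand: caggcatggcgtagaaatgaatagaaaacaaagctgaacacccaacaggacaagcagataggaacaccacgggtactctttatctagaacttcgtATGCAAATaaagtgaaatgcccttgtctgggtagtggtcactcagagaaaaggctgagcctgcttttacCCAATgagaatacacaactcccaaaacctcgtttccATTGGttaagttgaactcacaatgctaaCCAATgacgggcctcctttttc
Hist1h1e, chr13:23622559-23622808, - strand: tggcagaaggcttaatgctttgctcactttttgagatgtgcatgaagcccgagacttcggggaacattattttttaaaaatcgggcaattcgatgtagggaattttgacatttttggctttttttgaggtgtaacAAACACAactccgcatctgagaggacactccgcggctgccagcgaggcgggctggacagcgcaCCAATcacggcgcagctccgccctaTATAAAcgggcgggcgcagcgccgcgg
Hist1h4d, chr13:23581318-23581567, + strand: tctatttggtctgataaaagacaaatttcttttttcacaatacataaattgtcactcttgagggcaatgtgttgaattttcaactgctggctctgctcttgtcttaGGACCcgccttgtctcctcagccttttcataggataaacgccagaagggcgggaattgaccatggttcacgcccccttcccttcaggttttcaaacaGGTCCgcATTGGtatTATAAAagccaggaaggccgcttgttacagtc
CCAAT occurred in 51 of 62 windows, in every H1, H2A and H2B gene matched but in 3 of 12 H4 genes, against 33.8% of all 32851 windows of that length. TATAAA occurred in 29 of 62, against 12.4%. AAACACA, the H1 box, occurred in 5 of 6 H1 genes against 6.25% of all windows. ATTTGCAT, the octamer, occurred in 7 of 18 H2A and 6 of 16 H2B genes against 1.60%. GGTCC, the core of the H4 subtype element, occurred in 11 of 12 H4 genes against 39.8%. A match of this kind is a description of letters and marks no bound site.

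Library depth in reads is unknown, because the values are FPKM, fragments scaled to transcript length and to the mapped total. Relative depth was read as the inverse of the most common ratio of a library's low values to those of MacA-N replicate 1. It ran from 0.519 of the deepest library in MacB2-2wk replicate 3 to 1 in MacA-N replicate 1. The sorting markers followed the gates in part: Siglecf averaged 231 FPKM in MacA-N, and Ly6g was listed at 0 in all 24 libraries. Itgax, which encodes CD11c, averaged 7.33 FPKM in the CD11c- group MacB2-N and 103 FPKM in MacB1-N.

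Within groups, 1 library often carried higher or lower values for most histone genes. The summed FPKM of the 68 genes was 4577, 6387 and 5135 in MacA-N, 10928, 7270 and 4833 in MacB1-N, and 12146, 10378 and 2963 in MacB2-N, for replicates 1, 2 and 3. At 2 weeks it was 6419, 5890 and 18969 in MacA-2wk, 5690, 6244 and 13762 in MacB2-2wk, and 12582, 22478 and 12490 in MacB3-2wk. At 3 weeks it was 17090, 15038 and 14433 in MacB2-3wk and 23153, 12501 and 15678 in MacB3-3wk. MacA-2wk replicate 3 was the highest of its group for 58 of 61 genes tested, MacB2-N replicate 3 the lowest of its group for 49, MacB3-2wk replicate 2 the highest for 55, and MacB3-3wk replicate 1 the highest for 54.

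**Figure D1:**
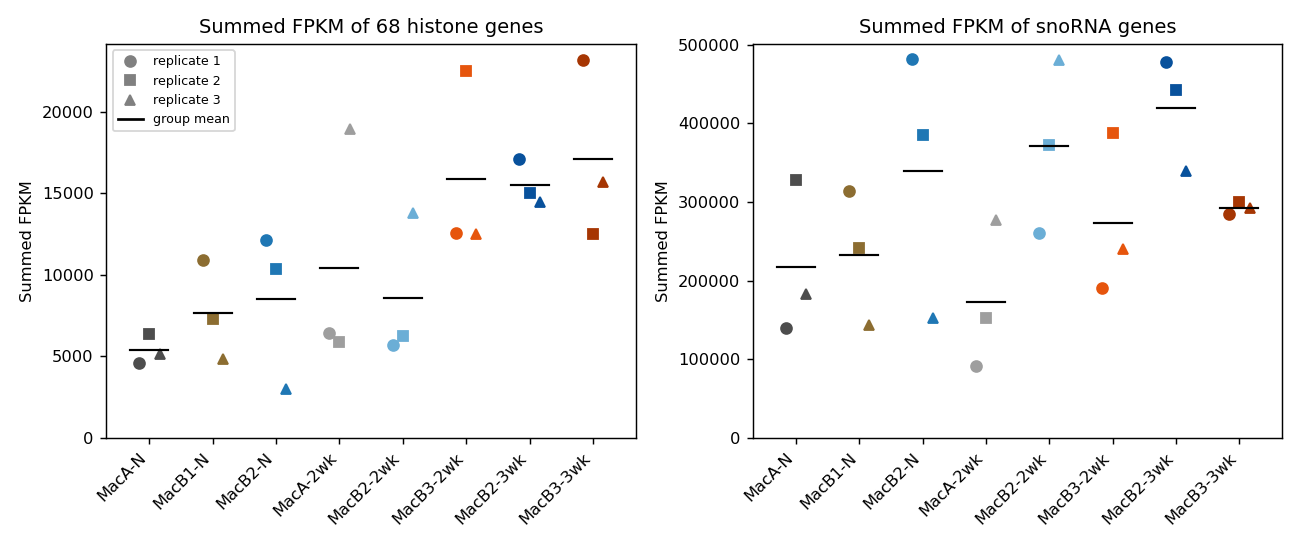
Summed FPKM of the 68 histone genes (left) and of the snoRNA genes (right) in each of the 24 libraries, by group, with markers for replicates 1 to 3 and a bar at the group mean. MacB2-N spans 2963 to 12146 and MacA-2wk 5890 to 18969 in the left panel, and the library with the highest histone sum is also the one with the highest snoRNA sum in 7 of 8 groups.

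The small nucleolar RNAs moved with the histone genes inside groups. The library with the highest histone sum also had the highest snoRNA sum in 7 of 8 groups, and the lowest coincided in 5 of 8. Across the 24 libraries, the deviation of the mean log2 histone level from its group mean had a Pearson correlation of 0.860 and a Spearman correlation of 0.824 with that of the log2 snoRNA sum. Without MacB2-N replicate 3 and MacA-2wk replicate 3, the values were 0.795 and 0.771 over 22 libraries. Against the mean of 30 DNA replication genes the same deviations had a Pearson correlation of 0.155 and a Spearman correlation of 0.238. The values were 0.566 and 0.516 against the log2 sum of small nuclear RNAs, and 0.553 and 0.569 against the mean of 11 replication-independent histone variants. The libraries of a group share sort and genotype, and the part of snoRNA content in the histone differences was tested only as a covariate added after the data were seen.

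**Figure D2:**
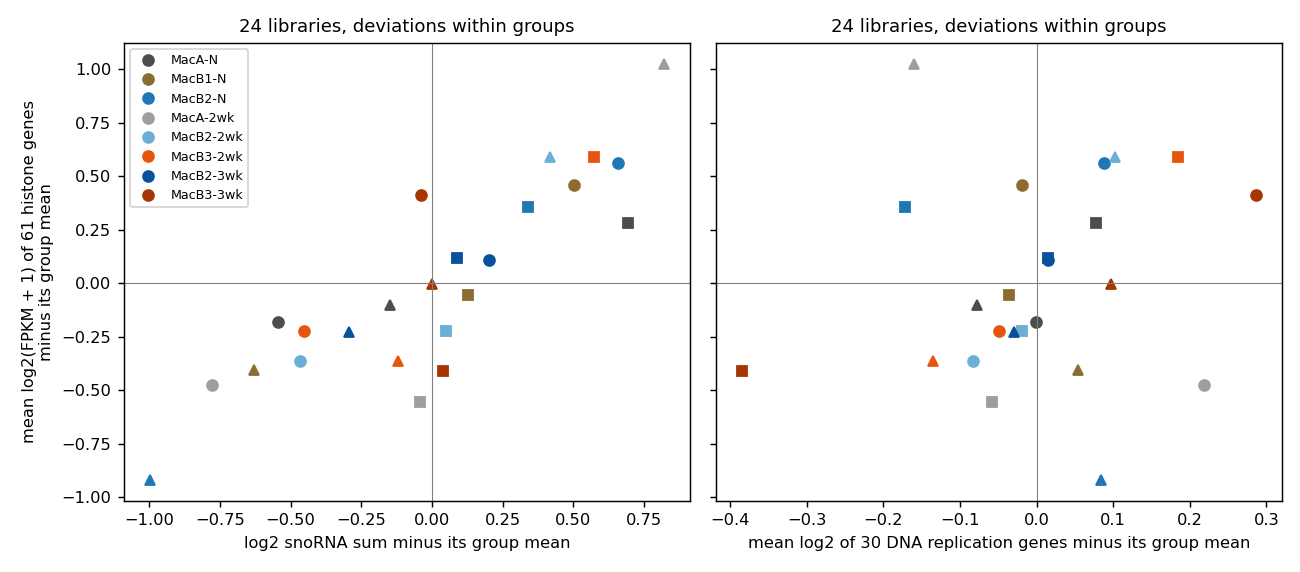
Mean log2(FPKM + 1) of the 61 tested histone genes minus its group mean (y axis), against the log2 snoRNA sum (left) and the mean log2 of 30 DNA replication genes (right), each minus its group mean. Each point is 1 of 24 libraries, coloured by group and marked by replicate. Points follow a rising line on the left (Pearson 0.860) and scatter widely on the right (0.155).

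H4 was the class with the largest share of the histone signal. It held 46.7% to 64.4% of the summed FPKM of the 68 genes over the 24 libraries, with the lowest shares, 46.7% to 49.7%, in the 6 MacB3 libraries. Averaged over the 8 group means, Hist1h4d was highest at 2272 FPKM, followed by Hist1h4c at 1014 and the H2A gene Hist1h2ak at 876. The next 9 genes lay between 247 FPKM (Hist1h2bg, H2B) and 481 FPKM (Hist1h4a), and included Hist1h4b, Hist1h4h, Hist1h4n and Hist1h4f, the linker histone Hist1h1e, and Hist1h2ab and Hist1h2bb. No H3 gene was among these 12.

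Genes entered the tests when 1 or more groups averaged 1 FPKM or above, which 61 of the 68 did, 54 of them in all 8 groups. The other 7 passed in some groups only: Hist1h1t, Hist1h2aa and Hist2h3c2 in 1 group, Hist1h2al and Hist2h3c1 in 2, Hist1h2an in 3 and Hist2h2be in 7. Another 6 genes (Hist1h2ao, Hist1h2ap, Hist1h2bq, Hist1h2br, Hist2h2aa1 and Hist2h2aa2) were listed at 0 in all 24 libraries. These 6 shared a median of 96.8% of the 50-base stretches of their transcripts with other histone genes, against 44.5% for the other 62, and their zeros were not read as absence. Reads from near-identical copies may be split or lost between any of these genes, and Hist1h2ah, described below, shared 90.7% of its transcript with others, mostly Hist1h2ad.

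The highest group mean was in MacB3-3wk for 28 of the 61 genes, in MacB2-3wk for 11, in MacA-2wk for 9, in MacB3-2wk for 8, in MacB2-N for 4 and in MacA-N for 1. The lowest was in MacA-N for 30 and in MacB2-N for 19. Calls below needed an adjusted p under 0.05 in limma together with a fold of 2 or more on the log2(FPKM + 1) scale, which understates changes of low genes. The p-values measure the spread between these libraries. Errors of log2 fold changes are standard errors (SE), and n is 3 libraries in each group. In such bulk libraries, a lower share of dividing cells and less histone RNA per cell cannot be told apart.

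**Figure D3:**
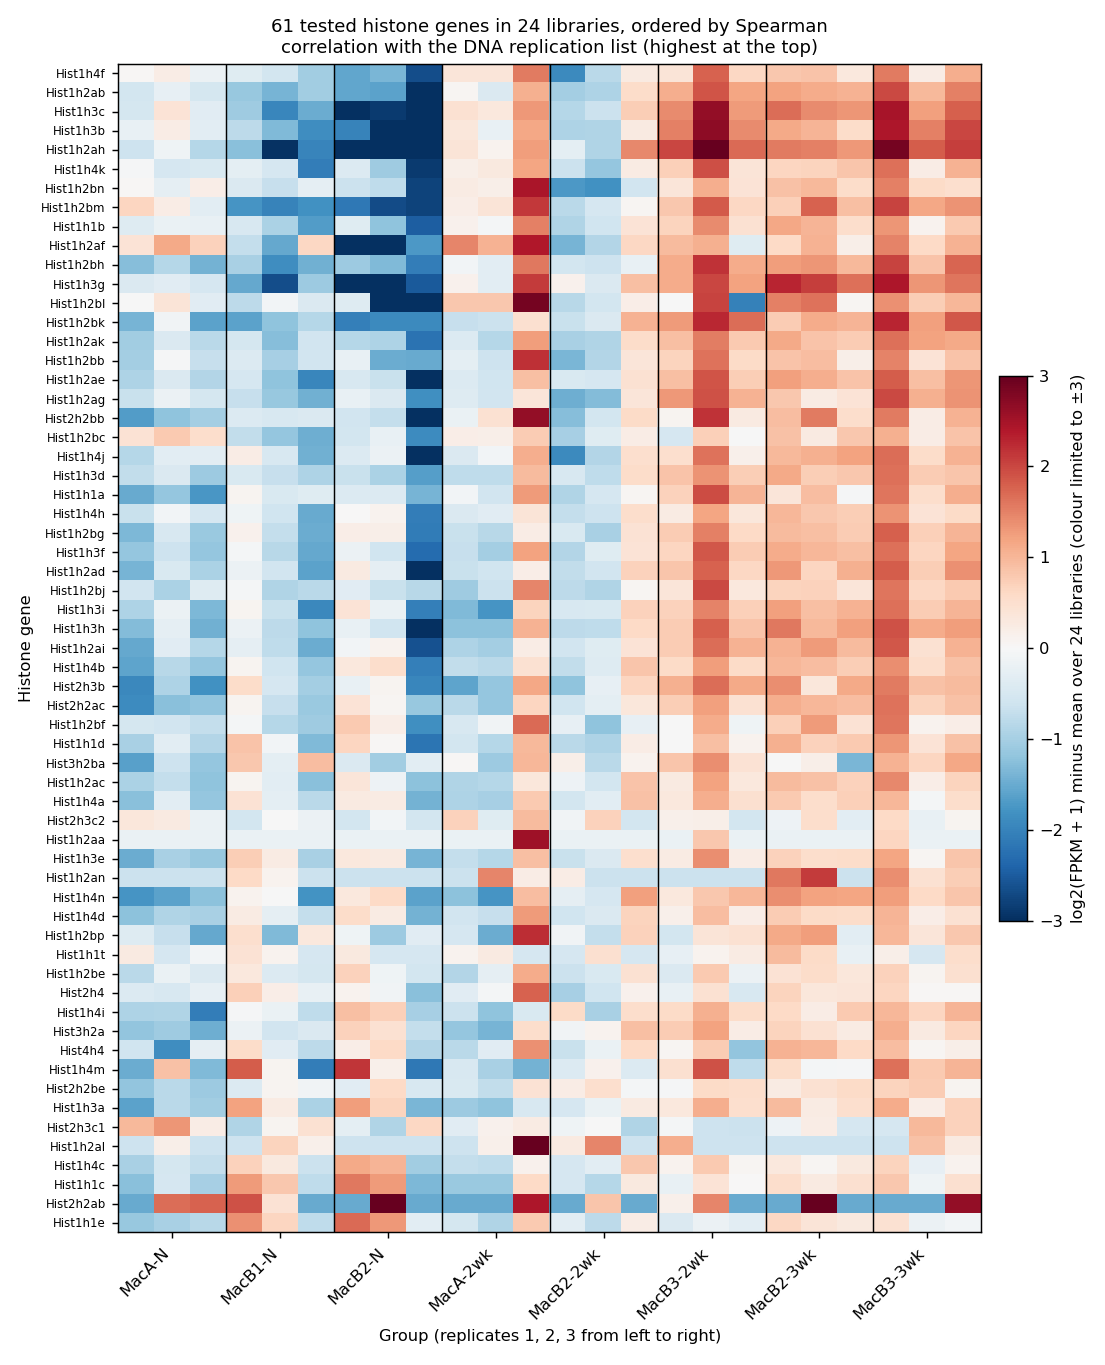
log2(FPKM + 1) of the 61 tested histone genes (rows) in 24 libraries (columns, grouped, replicates 1 to 3 from left to right), minus each gene's mean over the libraries, with colour limited to ±3. Rows are ordered by Spearman correlation with the mean of 30 DNA replication genes, from 0.903 for Hist1h4f at the top to -0.150 for Hist1h1e at the bottom. The upper rows are lowest in the 3 MacB2-N libraries, and the column of MacB2-N replicate 3 is low for most rows.

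Among naive cells, a set of H3, H2A and H2B genes and the H4 gene Hist1h4f were lower in MacB2-N than in MacA-N. The linker histone gene Hist1h1e was higher in MacB2-N. In MacB2-N against MacA-N, 10 of 61 histone genes fell (16.4%, against 10.2% of all 17156 genes tested) and 4 rose (6.56%, against 10.7%). In either direction 14 of 61 were called, a share near the 20.9% of all genes. The median log2 difference of the 61 was -0.06, and that of all genes 0.03. Without MacB2-N replicate 3, 12 rose and 7 fell, and the median was 0.37. With the snoRNA covariate 2 rose and 18 fell, and the median was -0.56. Of the markers of other cells, 2 of 5 tested for dendritic cells rose. Sums over that list were 4.37 to 7.62 FPKM in MacA-N and 28.9 to 42.4 in MacB2-N. Of 8 epithelial markers 3 fell, but the sum over that list was higher in MacB2-N (3124 to 10299 FPKM) than in MacA-N for most libraries (1102 to 5833). The B cell marker Cd79b, the T cell marker Cd3d and the neutrophil marker Csf3r rose by 2.27, 1.76 and 2.19 on the log2 scale. The neutrophil marker Cxcr2 fell by 1.62. Their part in the result was not tested.

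Hist1h3g (chr13:23535422-23535951, + strand) encodes a replication-dependent H3. It read 28.9, 30.8 and 27.7 FPKM in MacA-N and 0.531, 1.00 and 6.04 FPKM in MacB2-N. The groups did not overlap, and the log2 difference was -3.43 ± 0.593 (adjusted p 0.000167, limma). Hist1h2ah (chr13:22035164-22035568, - strand), an H2A gene, read 19.8, 28.4 and 16.6 FPKM in MacA-N and 0.530, 2.50 and 0.377 FPKM in MacB2-N. All 3 MacB2-N libraries were low, with a log2 difference of -3.50 ± 0.548 (adjusted p 5.75e-05, limma).

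Hist1h3c (chr13:23744973-23745602, - strand) went from 62.6, 121 and 71.4 FPKM to 7.29, 11.5 and 1.44 FPKM, and Hist1h3b (chr13:23752267-23752886, + strand) from 39.3, 54.3 and 36.6 FPKM to 10.8, 3.92 and 1.18 FPKM. Both are H3 genes of the Hist1 cluster, and both fell without overlap, by 3.71 and 3.12 on the log2 scale. Hist1h2af (H2A) fell by 4.25 on the log2 scale. These 5 calls held without any 1 library and under every other setting tried. Hist1h2bm, Hist1h4f, Hist1h2ab, Hist1h2bc and Hist1h2bl also fell, by 1.47 to 2.78 on the log2 scale, and Hist1h2bl lost its call without MacA-N replicate 1 or 2 or MacB2-N replicate 2 or 3 (adjusted p 0.0615 to 0.120).

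Hist1h1e (chr13:23620629-23622558, - strand) encodes H1.4, a linker histone found in most somatic cells. It read 154, 171 and 188 FPKM in MacA-N and 1097, 831 and 269 FPKM in MacB2-N, without overlap. Its log2 difference was 1.87 ± 0.511 (adjusted p 0.00890, limma). Leaving out MacB2-N replicate 1 lowered it to 1.47, with an adjusted p of 0.0596 in limma. Hist1h4i, Hist3h2a and Hist2h2ac rose by 1.51, 1.39 and 1.22, and each lost its call without MacB2-N replicate 1 (adjusted p 0.0957, 0.0978 and 0.199). MacA-N replicate 3 and MacB2-N replicate 2 also ended these 3 calls when left out, as did MacA-N replicates 1 and 2 for Hist2h2ac. In a fit of these 2 groups alone, Hist1h1e, Hist1h4i, Hist3h2a, Hist2h2ac and Hist1h2bl were not called (adjusted p 0.0729 to 0.177).

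MacB1-N averaged between the other naive groups for Hist1h2af, Hist1h2ah, Hist1h3b, Hist1h3c and Hist1h3g, which were low in MacB2-N. Hist1h2bc, also low in MacB2-N, averaged 31.3 FPKM in MacB1-N, 40.3 in MacB2-N and 102 in MacA-N. Hist1h3g read 12.9, 5.40 and 18.1 FPKM in MacB1-N and Hist1h3c 42.9, 22.7 and 31.6 FPKM. Against MacB2-N, 5 of 61 histone genes rose (8.2%, against 3.50% of all genes), out of 5.21% called in either direction, and none fell (1.70%). They were Hist1h2af (2.96), Hist1h3c (2.36), Hist1h3g (2.10), Hist1h2ah (1.97) and Hist1h3b (1.91 on the log2 scale). This comparison and the one before share the MacB2-N libraries. All 5 lost their calls in a fit of these 2 groups alone (adjusted p 0.184 to 0.267), and leaving out MacB1-N replicate 1 or 3 or MacB2-N replicate 2 left 2 calls, and MacB2-N replicate 3 left 3. Hist1h3c was the gene that kept its call without any 1 library. With the replicate number, which matches the run lane in MacB, as a block, Hist1h2ah and Hist1h3b were not called (adjusted p 0.0922 and 0.0551, limma) and 3 calls were left. The dendritic cell markers Ccr7 and Cd209a were higher in MacB1-N by 3.67 and 3.02 on the log2 scale, Nkg7 by 1.95 and Cd79a by 1.64. The neutrophil markers Csf3r and Mmp8 were lower by 1.10 and 3.96. The part of these markers in the result was not tested.

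In MacB1-N against MacA-N, 3 histone genes rose (4.92%, against 15.0% of all genes) and 3 fell (4.92%, against 8.71%), where 23.7% of all genes were called in either direction. Hist3h2ba, Hist1h1e and Hist1h1a rose by 1.61, 1.40 and 1.23 on the log2 scale. Hist1h2bm and Hist1h2bc, both H2B genes, fell by 2.05 and 1.70, and held under every other setting. As an example, Hist1h2bm read 55.1, 40.7 and 27.9 FPKM in MacA-N and 9.56, 7.87 and 9.21 FPKM in MacB1-N. Hist1h2ah fell by 1.53. The other 4 calls were less stable. Hist1h1e, Hist1h1a and Hist1h2ah each lost theirs without any of 5 of the 6 libraries, and Hist3h2ba without MacA-N replicate 1 or MacB1-N replicate 1 or 3. In a fit of these 2 groups alone Hist3h2ba, Hist1h1e and Hist1h2ah were not called (adjusted p 0.0513, 0.129 and 0.0737, limma). Leaving out MacA-N replicate 1 left 2 calls, and leaving out MacA-N replicate 3 or MacB1-N replicate 2 left 3. All 8 endothelial markers rose here, with sums of 68.4 to 129 FPKM in MacA-N and 429 to 570 in MacB1-N. So did 7 of 8 fibroblast markers, 5 of 6 tested for T and NK cells (sums of 2.50 to 6.34 and 31.1 to 44.1) and 4 of 5 tested for dendritic cells (sums of 4.37 to 7.62 and 234 to 339). Their part in the result was not tested.

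In tumour-bearing lungs at 3 weeks, histone genes of all 5 classes were higher in MacB2 cells than in naive MacB2 cells. Of 61 genes tested, 28 rose in MacB2-3wk against MacB2-N (45.9%, against 9.67% of all genes) and none fell (5.04%), with 14.7% of all genes called in either direction. The median log2 difference was 1.44 against 0 for all genes, with 55 values above and 4 below 0. The calls comprised 1 of 6 H1 genes, 9 of 15 H2A, 8 of 15 H2B, 6 of 12 H3 and 4 of 13 H4. Among the 28, the groups overlapped for Hist1h2an, which was listed at 0 in MacB2-N and read 3.68, 5.59 and 0 FPKM in MacB2-3wk.

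Hist1h3g read 195, 168 and 125 FPKM in MacB2-3wk, against at most 6.04 FPKM in naive MacB2 cells. The rise was 5.85 ± 0.593 on the log2 scale (adjusted p 1.38e-06, limma). Hist1h2ah read 92.9, 89.9 and 77.4 FPKM and rose by 5.49 ± 0.548 (adjusted p 1.20e-06, limma). The libraries of the 2 groups lay far apart for both genes. Hist1h3c reached 291, 244 and 229 FPKM, a rise of 5.33, and Hist1h3b 103, 94.5 and 67.7 FPKM, a rise of 4.13. Hist1h2af and Hist1h2bl rose by 4.10 and 3.83. None of these 6 calls depended on 1 library, and in a fit of these 2 groups alone only Hist1h2bl was not called (adjusted p 0.102).

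The other called genes rose by 1.32 (Hist1h2ag) to 3.66 (Hist1h2bm) on the log2 scale. Hist1h2ak, the most abundant H2A gene, read 378, 355 and 144 FPKM in MacB2-N and 1505, 1226 and 1159 FPKM in MacB2-3wk, a rise of 2.26 ± 0.483 (adjusted p 0.00223, limma). Hist1h1b, which encodes the linker histone H1.5 of dividing cells, read 54.0, 29.6 and 11.8 FPKM and then 157, 142 and 101 FPKM, and rose by 2.25 (adjusted p 0.00310, limma). Hist1h1b was the H1 gene called here.

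Other abundant genes were not called at 3 weeks. Hist1h1e had a log2 difference of -0.45 (adjusted p 0.593, limma), Hist1h1c of -0.07 (0.990) and Hist1h4c of -0.17 (0.879). Hist1h4d, the most abundant of all, read 2964, 2372 and 752 FPKM in MacB2-N and 3397, 3002 and 2923 FPKM in MacB2-3wk, which gave 0.83 ± 0.511 (adjusted p 0.280, limma). The 2 groups overlapped for Hist1h4d, with MacB2-N replicate 3 the lowest library.

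The count at 3 weeks depended on MacB2-N replicate 3, the library with the lowest histone sum. Without that library, 15 histone genes rose, against 9.51% of all genes, and the median was 0.83. Its endothelial marker sum was 455 FPKM, against 127 and 145 in MacB2-N replicates 1 and 2. Its epithelial sum was 3124 FPKM, against 10299 and 7927. With the log2 snoRNA sum as a covariate, 28 rose with a median of 1.00. In a fit of these 2 groups alone, 13 rose. Markers of other cells moved too: 6 of 8 fibroblast markers rose, with sums of 21.1 to 53.5 FPKM in MacB2-N and 486 to 918 in MacB2-3wk, and 3 of 8 endothelial markers fell, with sums of 127 to 455 and 52.9 to 82.9. Dendritic markers fell in 2 of 5 tested (sums of 28.9 to 42.4 and 9.11 to 12.5), B cell markers in 1 of 4 tested (11.6 to 16.6 and 2.82 to 4.34), and epithelial markers moved both ways, with sums of 3124 to 10299 and 611 to 867. Of 7 macrophage and monocyte markers 3 fell, with sums of 7671 to 11595 and 4547 to 5290. On the neutrophil list S100a8 rose by 3.01 and Csf3r fell by 1.63 on the log2 scale, with sums of 241 to 294 and 222 to 282. The B cell marker Blk was at 0 in MacB2-3wk, and none of the fibroblast or endothelial markers was at 0 in a whole group. The part of these markers in the histone result was not tested.

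**Figure D4:**
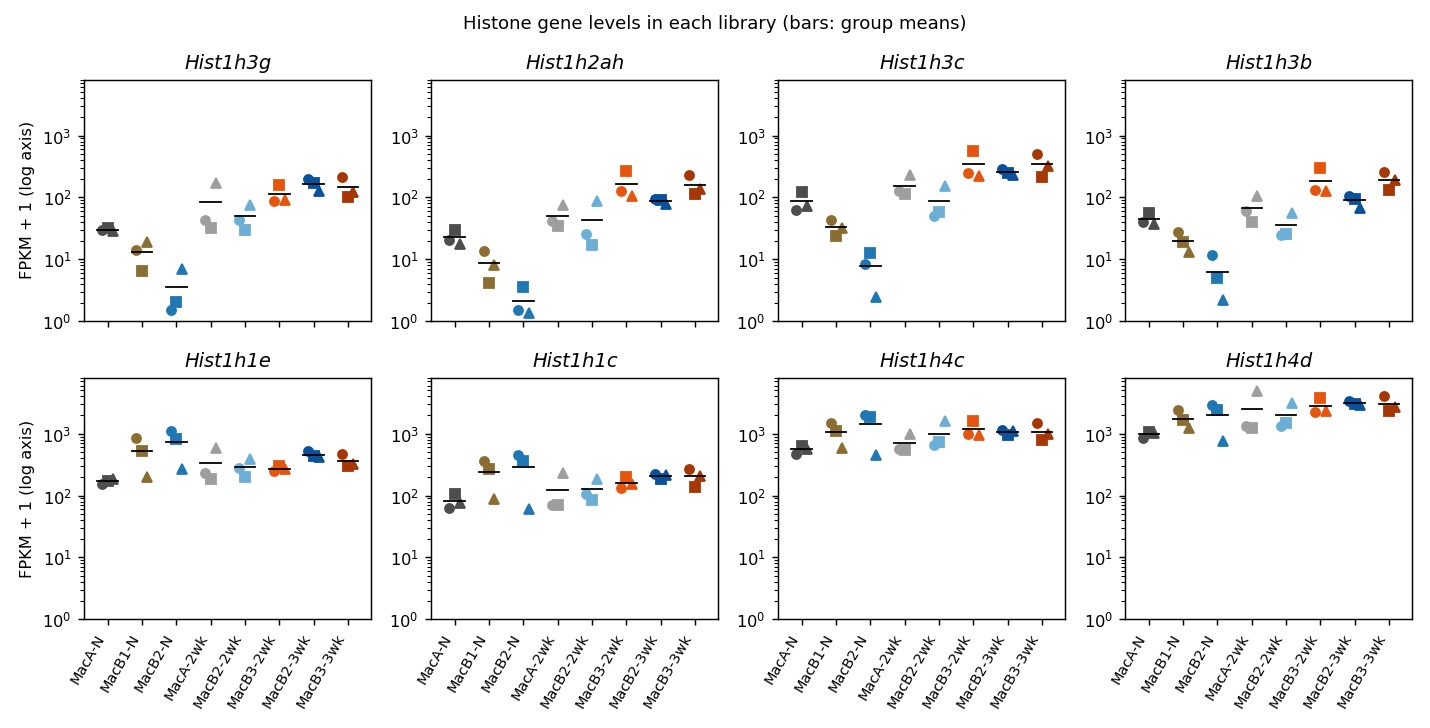
FPKM + 1 on a log axis for Hist1h3g, Hist1h2ah, Hist1h3c, Hist1h3b, Hist1h1e, Hist1h1c, Hist1h4c and Hist1h4d in each library, by group, with markers for replicates 1 to 3 and bars at group means. The 4 genes in the upper row are lowest in MacB2-N, where Hist1h3g reads 0.531 to 6.04 FPKM, and reach 125 to 195 FPKM in MacB2-3wk for Hist1h3g; the 4 in the lower row overlap between these 2 groups.

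At 2 weeks a few H2A, H2B and H3 genes were higher in MacB2 cells of tumour lobes than in naive ones. In MacB2-2wk against MacB2-N, 7 of 61 rose (11.5%, against 1.66% of all genes) and none fell (0.227%), with 1.88% of all genes called in either direction. The median log2 difference was 0.39 against 0.03 for all genes, and without MacB2-N replicate 3 it was -0.04. Hist1h2ah read 25.1, 16.2 and 86.4 FPKM in MacB2-2wk and rose by 4.13 ± 0.548 (adjusted p 0.000424, limma). Hist1h3g read 43.0, 28.7 and 74.7 FPKM and rose by 4.05 ± 0.593 (adjusted p 0.000819, limma). Hist1h3c read 49.5, 57.8 and 152 FPKM and rose by 3.60 ± 0.539 (adjusted p 0.000862, limma). Each of these 3 genes was highest in replicate 3, and none overlapped between the groups.

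Hist1h2af, Hist1h3b, Hist1h2bm and Hist1h2bk rose by 2.95, 2.71, 2.11 and 1.93. The calls of Hist1h2af, Hist1h3b and Hist1h2bm ended without MacB2-2wk replicate 3 (adjusted p 0.179, 0.0640 and 0.0933), where 3 calls were left. Hist1h2af also lost its call without MacB2-N replicate 1 or 2 or MacB2-2wk replicate 2, and Hist1h2bm without MacB2-N replicate 2 or 3. Without MacB2-N replicate 2, 4 calls were left. In a fit of these 2 groups alone none of the 7 was called. With the run lane as a replicate block, Hist1h2af was not called (adjusted p 0.0691, limma). Here 2 of 8 fibroblast markers rose, with sums of 21.1 to 53.5 FPKM in MacB2-N and 123 to 180 in MacB2-2wk. No epithelial marker was called, with sums of 3124 to 10299 and 399 to 2452. Their part in the result was not tested.

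At 2 weeks, H2A, H2B and H3 genes were higher in MacB3 than in MacB2 cells, both from tumour lobes. In MacB3-2wk against MacB2-2wk, 11 of 61 histone genes rose (18%, against 3.15% of all genes) and none fell (4.21%), with 7.36% of all genes called in either direction. The median log2 difference was 0.99 against -0.08 for all genes, and 55 of 61 values were above 0. The calls comprised 1 H1 gene (Hist1h1a), 3 of H2A, 4 of H2B, 2 of H3 and 1 of H4 (Hist1h4f).

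Hist1h3b read 23.9, 24.4 and 55.5 FPKM in MacB2-2wk and 133, 300 and 125 FPKM in MacB3-2wk, a rise of 2.38 ± 0.515 (adjusted p 0.00527, limma). Hist1h2ag read 26.3, 29.4 and 95.2 FPKM and then 184, 282 and 152 FPKM, a rise of 2.22 ± 0.450 (adjusted p 0.00329, limma). Hist1h2bh, an H2B gene, read between 29.7 and 39.7 FPKM and then 101, 210 and 102 FPKM, a rise of 1.93 ± 0.427 (adjusted p 0.00628, limma). The groups did not overlap for any of these 3 genes, and Hist1h2bh kept its call under every setting.

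Hist1h2ah, Hist1h3c and Hist1h2bn rose by 2.18, 2.03 and 2.01, and each lost its call without MacB2-2wk replicate 1 or 2 or MacB3-2wk replicate 2 (adjusted p 0.0601 to 0.106). Hist1h2bn also lost it without MacB3-2wk replicate 3, and Hist1h3c with the run lane as a replicate block (adjusted p 0.0554, limma). Leaving out any of the first 3 libraries left 3 histone genes, and in a fit of these 2 groups alone 1 was called. With the snoRNA covariate 34 rose, and the share of all genes under that setting is not given here. Here 4 of 8 endothelial markers fell, with sums of 161 to 511 FPKM in MacB2-2wk and 63.7 to 94.7 in MacB3-2wk, and 2 of 8 fibroblast markers fell, with sums of 123 to 180 and 25.2 to 58.6. None of the endothelial or fibroblast markers was at 0 in either group. The dendritic cell markers Cd209a and Flt3, the B cell marker Cd79a, the T and NK cell marker Nkg7 and the neutrophil markers Csf3r and Mmp8 also fell. Their falls were 1.41 to 2.51 on the log2 scale, while Cd4 rose by 1.45. The part of all these markers in the result was not tested.

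At 3 weeks no histone gene was called between MacB3-3wk and MacB2-3wk by limma, against 2.64% of all genes, 1.61% higher and 1.03% lower. At the looser threshold of an unadjusted p under 0.05 (limma), 3 histone genes passed. The median log2 difference was 0.10. Hist1h3g read 216, 99.9 and 121 FPKM in MacB3-3wk and overlapped with MacB2-3wk. Between MacB3-3wk and MacB3-2wk no histone gene was called either, against 0.315% of all genes, 0.280% higher and 0.0350% lower. Here 1 histone gene passed at an unadjusted p under 0.05 (limma). The median was 0.16, and Hist1h3b read 254, 133 and 190 FPKM at 3 weeks against 133, 300 and 125 FPKM at 2 weeks.

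**Figure D5:**
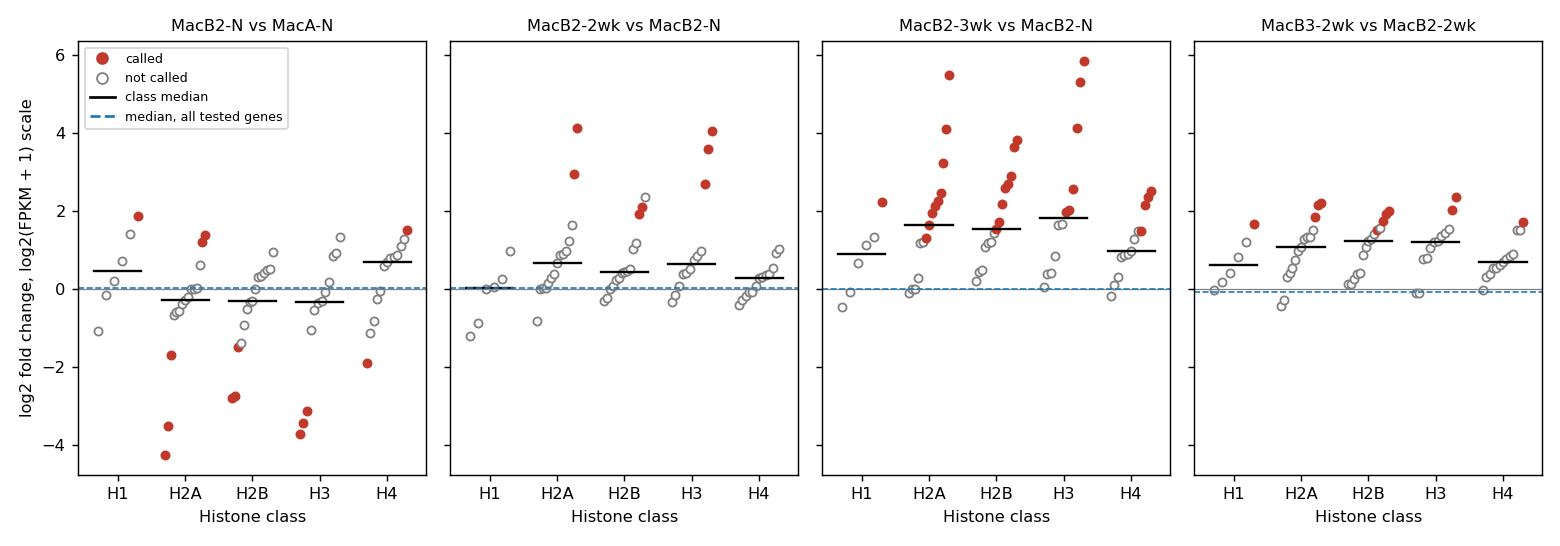
Log2 fold changes of the 61 tested histone genes on the log2(FPKM + 1) scale, by class, in 4 comparisons, with called genes filled, class medians as black bars and the median of all tested genes as a dashed line. In MacB2-3wk against MacB2-N, 28 genes are called and all lie above 0, up to 5.85; in MacB2-N against MacA-N, called genes lie on both sides, from -4.25 to 1.87.

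MacA cells of tumour lobes were compared with naive MacA cells at 2 weeks. In MacA-2wk against MacA-N no histone gene was called by limma, against 0.787% of all genes, 0.729% higher and 0.0583% lower. At the looser threshold of an unadjusted p under 0.05 (limma), 6 histone genes passed. The median log2 difference was 0.74 against 0.05 for all genes, and 56 of 61 values were above 0. Hist1h3g read 42.8, 31.4 and 171 FPKM in MacA-2wk and Hist1h4d 1346, 1238 and 4846 FPKM. Replicate 3 was far above its partners in both genes, and without it the median was 0.20. That library also had a fibroblast marker sum of 273 FPKM, against 34.2 and 28.5 in replicates 1 and 2, and an endothelial sum of 256 against 51.8 and 49.5. The part of these markers was not tested.

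The response of MacB2 cells and of MacA cells at 2 weeks was compared by an interaction term. No histone gene was called, against 0.221% of all genes, 0.134% higher and 0.0874% lower. At the looser threshold of an unadjusted p under 0.05 (limma), 7 histone genes passed. The median of the interaction was -0.235. It was 0.31 without MacA-2wk replicate 3, 0.04 without MacB2-N replicate 1 and -0.70 without MacB2-N replicate 3, so its sign depended on single libraries. A difference in response between the 2 populations was not shown.

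MacB3-2wk was compared with MacA-2wk, both from tumour lobes. Of 61 histone genes, 7 rose (11.5%, against 7.20% of all genes) and none fell (7.28%), with 14.5% of all genes called in either direction. Hist1h2bk (chr13:22035870-22036345, + strand), an H2B gene, read 9.54, 9.89 and 22.8 FPKM in MacA-2wk and 40.7, 81.7 and 53.8 FPKM in MacB3-2wk. It rose by 2.04 ± 0.447 (adjusted p 0.00253, limma) and kept its call under every setting. Hist1h2ai, Hist1h2ah, Hist1h2ag, Hist1h3a, Hist1h4i and Hist3h2a rose by 1.41 to 1.73. These 6 lost their calls without MacA-2wk replicate 2 or MacB3-2wk replicate 2, where Hist1h2bk was left. Leaving out MacA-2wk replicate 1 or MacB3-2wk replicate 1 left 3, and leaving out MacA-2wk replicate 3 gave 24, with a median of 1.40 in place of 0.80. With the snoRNA covariate 2 histone genes rose and 2 fell, and the median was 0.26. On the dendritic cell, B cell, and T and NK cell lists, Ccr7, Cd79b and Cd4 rose by 1.62, 1.33 and 2.17 on the log2 scale. Clec9a (dendritic cell) and Cxcr2 (neutrophil) fell by 1.45 and 1.73. Epithelial sums were 352 to 1161 FPKM in MacA-2wk and 138 to 588 in MacB3-2wk. The part of these markers in the result was not tested.

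Of the genes fixed as having polyadenylated transcripts in non-dividing cells (Hist1h1c, Hist1h2bc, Hist2h2be and Hist3h2a), Hist1h2bc rose in MacB2-3wk against MacB2-N by 1.54 (adjusted p 0.00859, limma). Hist3h2a was at 0.31 and Hist2h2be at 0.50 on the log2 scale, neither called. Hist1h1c, which encodes H1.2, read 450, 366 and 58.8 FPKM in MacB2-N and 218, 181 and 211 FPKM in MacB2-3wk. Its values overlapped, with MacB2-N replicates 1 and 2 above every library of MacB2-3wk. The testis genes Hist1h1t, Hist1h2aa and Hist1h2ba were at or near 0 throughout. Hist1h2aa and Hist1h2ba reached 5.67 and 1.63 FPKM in MacA-2wk replicate 3, where both were highest.

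Histone genes differed in how far they followed DNA replication genes across the 24 libraries, which differ in group, lane and snoRNA content. The Spearman correlation with the mean of 30 replication genes had a median of 0.53 over the 61 genes. It was highest for Hist1h4f (0.903), Hist1h2ab (0.877), Hist1h3c (0.876), Hist1h3b (0.857) and Hist1h2ah (0.843). It was -0.150 for Hist1h1e, -0.055 for Hist1h1c and -0.026 for Hist1h4c. Genes whose annotated transcript ran over 100 bases past the stem-loop had a median of 0.372 over 23 genes tested. Those with 100 bases or fewer had 0.614 over 19, and those with no stem-loop match 0.623 over 19.

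Fold changes were also counted by transcript kind. In MacB2-3wk against MacB2-N, 5 of 23 genes with long annotated ends rose, with a median of 0.87, against 11 of 19 with short ends (1.5) and 12 of 19 without a match (1.95). In MacB2-N against MacA-N, 3 of 23 genes with long ends rose and none fell, while 1 of 19 with short ends rose and 6 fell. Hist1h1e and Hist1h4d, shown above with 1153 and 770 bases after the stem-loop, are of the first kind, and Hist1h3g, with 47, of the second. Differences between the kinds of transcript were not tested.

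Replication and mitosis genes were read in the same comparisons. Of the 30 fixed genes for S phase and DNA replication, 21 fell in MacB2-N against MacA-N, 10 fell and 1 rose in MacB1-N against MacA-N, 11 rose in MacB1-N against MacB2-N, 4 rose in MacB2-2wk, 23 in MacB2-3wk (median 1.77) and 16 in MacB3-2wk against MacB2-2wk (median 1.16). Uhrf1, which carries DNA methylation through replication, rose by 3.40 in MacB2-3wk, and the replicative helicase subunit Mcm6 by 2.86. Of 20 mitosis genes, 18 rose in MacB2-3wk and 8 (40%) in MacB2-2wk, each against MacB2-N. In MacB3-2wk against MacB2-2wk 12 rose, and in MacB1-N against MacB2-N 9 rose. Against MacA-N, 19 fell in MacB2-N and 11 in MacB1-N. Of all genes, 9.67%, 1.66%, 3.15% and 3.50% rose in the first 4 of these comparisons. In the last 2, 10.2% and 8.71% of all genes fell. In MacB3-2wk against MacA-2wk, where 7 histone genes rose, 1 of 30 replication genes rose and 1 fell.

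Of 18 genes tested for transcription and processing of histone mRNA, 1 was called in MacB2-3wk against MacB2-N and 1 in MacB3-2wk against MacB2-2wk. Ccne1 (cyclin E1, which drives entry into S phase) rose in MacB2-3wk against MacB2-N by 2.58. E2f1 rose by 1.25 in MacB3-2wk against MacB2-2wk. Slbp read 48.5, 48.6 and 58.0 FPKM in MacB2-N and 29.3, 48.3 and 47.2 FPKM in MacB2-3wk, a log2 difference of -0.34 (adjusted p 0.324, limma). Slbp was not called in any of the 11 comparisons.

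Of 13 histone chaperones tested, 4 rose in MacB2-3wk against MacB2-N: Chaf1a by 2.38, Asf1b by 1.96, Hira by 1.17 and Rbbp7 by 1.17. Chaf1a is the large subunit of the assembly factor CAF-1, and Asf1b hands new H3 and H4 to it. Asf1b and Chaf1a also rose in MacB3-2wk against MacB2-2wk, by 2.30 and 1.21. Of 11 replication-independent histone variants, H2afx rose in both, by 2.03 and 1.02. H2afx encodes H2A.X, which is phosphorylated at DNA breaks, and it read 21.4, 18.8 and 20.0 FPKM in MacB2-N and 101, 76.7 and 78.2 FPKM in MacB2-3wk.

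Many H2A and H2B genes lie head to head. With starts at most 1000 bases apart on opposite strands, 13 pairs were found, 12 of them an H2A with an H2B gene. Both genes were tested in 10. In MacB2-3wk against MacB2-N both genes rose in 4 pairs, 1 gene in 5, and neither in 1. Hist1h2ah and Hist1h2bk, whose starts are 302 bases apart and whose upstream windows overlap, rose by 5.49 and 2.92. Hist1h2bl and Hist1h2ai, 279 bases apart, rose by 3.83 and 1.95, and Hist1h2ak and Hist1h2bn, 296 bases apart, by 2.26 and 2.19. The strand of the reads is not stated in the material at hand.

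Among 8526 other protein-coding genes that averaged 5 FPKM or above, the pattern most like the mean histone level over the 24 libraries was that of Prdx4 (Spearman 0.857). Eif3b (0.853), Cnih1 (0.852), Ccl7 (0.847) and Dars (0.847) came next, and H2afx (0.838) was the sixth. Gfer, Fntb, Rnf126 and Eif2s1 completed the first 10, down to 0.830.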

How the data were processed

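RNA sequencing values of 24 libraries were analysed. The deposited table holds 1 row per gene and 1 column per library, without a named unit. Per the submitters' processing notes, the authors ran FastQC, used TopHat2 (version 2) against mm10, and took FPKM from Cufflinks 2.0.2. Per the labels, total RNA went into the Ovation FFPE kit of NuGen, with oligonucleotides against mouse rRNA. Neither strand use nor annotation is stated there. The loci in the table overlapped GENCODE M21 (GRCm38) positions for 0 of 68 members, so positions came from GENCODE M21 by symbol, which lists 67 of them as protein coding and Hist1h2al as a processed pseudogene.

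Values were tested as log2(FPKM + 1), without rescaling, in limma 3.58.1 (R 4.3.3) with trend and empirical Bayes moderation, 1 mean per group over 24 libraries and 16 residual degrees of freedom. Genes that averaged 1 FPKM or above in any group were tested (17156), with Benjamini-Hochberg adjustment over all of them in each comparison. Other pseudocounts (0.5 and 5), filters (none and 5 FPKM), scalings, a fit of the compared groups alone, a replicate block and leaving out each library were tried, and a snoRNA covariate was added after the data were seen. Recovery of known changes was checked on simulated data. Tables and sequence searches used Python 3.11.15, pandas 2.3.3 and numpy 2.4.6.

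The genes, lists and comparisons were chosen with earlier results of these data known. Named members were the 12 with the highest mean, and in each comparison the called members, up to the 6 highest and 6 lowest averaging 5 FPKM or above in the higher group, plus the testis and polyadenylated lists. Other members named as examples were chosen after their values were seen. Of other lists, up to 4 called genes with the largest changes could be named. Slbp was chosen outside this rule. The design text names the MacB3 samples of 2 weeks as 3 weeks, and titles were followed. Replicate numbers match run lanes 2, 3 and 7 in MacB. Over all tested genes, deviations of same-numbered MacB libraries correlated at -0.0726 to 0.21, with 1 of 45 pairs over 0.1. That pair was replicate 3 of MacB1-N and MacB2-N, which are compared. The mean log2 level of tested histone genes fell from replicate 1 to 3 in both (5.57, 5.05 and 4.71 in MacB1-N, and 5.27, 5.07 and 3.79 in MacB2-N).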

Additional observations from a re-analysis of the deposited data

Results flagged for a closer look

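The rows that match the symbol rule but are typed as pseudogenes, Hist1h2aj and Hist3h2bb-ps, enter no comparison. Hist3h2bb-ps averaged 43.8 FPKM in MacB3-2wk, 25.9 FPKM in MacB2-3wk and 44.2 FPKM in MacB3-3wk. These means are above those of the naive groups, which were 5.48 FPKM in MacA-N, 19 in MacB1-N and 14.8 in MacB2-N. In the other tumour groups it averaged 11.9 FPKM (MacA-2wk) and 10.2 FPKM (MacB2-2wk), below both naive MacB groups. The differences were not tested. Groups of 3 libraries are too small for a test of single outlying samples.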

How the results depend on the processing

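Among the members named by the rule above, none changed direction where it was called in the main fit or under a setting. Called histone genes outside that set were not followed singly. Of the values of single named members under these settings, 5632 kept their side of the threshold, 229 lost a call and 80 gained one. Direction was not compared for values called in neither fit. Counts of called histone genes moved as follows. In MacB1-N against MacA-N (6) there were 3 without a filter and 12 with the snoRNA covariate, and 2 to 6 without 1 library. In MacB2-N against MacA-N (4 higher, 10 lower) there were 7 in a fit of the compared groups alone, 20 with the covariate (2 higher, 18 lower), and 10 to 19 without 1 library. In MacB1-N against MacB2-N (5) there were 2 with a pseudocount of 5, 2 with quantile normalization, 10 with the snoRNA covariate, 0 in the compared groups alone and 3 with the replicate block, and 2 to 4 without 1 library. In MacA-2wk against MacA-N (0) the covariate gave 7, and leaving out 1 library 0 to 2. In MacB2-2wk against MacB2-N (7) a pseudocount of 5 gave 4, the compared groups alone 0, and leaving out 1 library 3 to 7. In MacB2-3wk against MacB2-N (28) the compared groups alone gave 13, and leaving out 1 library 15 to 31. In MacB3-2wk against MacB2-2wk (11) the covariate gave 34, the compared groups alone 1, and leaving out 1 library 3 to 14. In MacB3-3wk against MacB2-3wk (0) the covariate gave 2. In MacB3-2wk against MacA-2wk (7) no filter gave 4, a minimum of 5 FPKM 12, median-ratio scaling 12, quantile normalization 4, the covariate 4 (2 higher, 2 lower), the compared groups alone 4, and leaving out 1 library 1 to 24. In the interaction (0) the covariate gave 1. For most of these settings the share of all genes called is not given beside the count. The shifts are therefore not read as particular to histone genes. Fewer samples inform the fit of the compared groups alone, and the cause of the other shifts was not tested.

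With the replicate block, 25 histone genes were called in MacB2-3wk against MacB2-N and 10 in MacB3-2wk against MacB2-2wk. Over all tested genes, most same-numbered MacB libraries showed little shared deviation. Quantile normalization moved the split of all called genes from 2572 higher and 1495 lower to 1930 and 2161 in MacB1-N against MacA-N. It moved it from 601 and 292 to 423 and 422 in MacB1-N against MacB2-N, from 284 and 39 to 209 and 71 in MacB2-2wk against MacB2-N, from 1659 and 865 to 1374 and 1234 in MacB2-3wk against MacB2-N, from 541 and 722 to 676 and 527 in MacB3-2wk against MacB2-2wk, and from 48 and 6 to 21 and 6 in MacB3-3wk against MacB3-2wk. It moved the median log2 difference of all genes from 0.12 to -0.03 in MacB1-N against MacA-N and from 0.09 to -0.02 in MacB1-N against MacB2-N. The depth in reads is unknown, so the counting error of low values could not be computed here.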
